A study of Mus musculus with 13 samples.

Results

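In spinal motoneurons of mutant SOD1 mice, 10 genes that encode subunits of AMPA and NMDA glutamate receptors were examined. They were Gria1, Gria2, Gria3 and Gria4 for AMPA receptors, and Grin1, Grin2a, Grin2b, Grin2c, Grin2d and Grin3a for NMDA receptors. Grin3b, which also encodes an NMDA receptor subunit, is counted below with the other ionotropic receptors. The 10 genes were matched by their GENCODE names to 10 of the 48709 gene rows in the count tables. All 13 libraries came from SOD1-G93A mice, which carry a mutated human SOD1 transgene and serve as a model of amyotrophic lateral sclerosis (ALS), and all mice were 65 days old. The AAV-miR SOD1 group (n = 4) had received, into the cerebral ventricles at postnatal day 2, an adeno-associated virus (AAV) that drives an artificial microRNA against human SOD1 in astrocytes. The AAV-miR ctrl group (n = 5) had received the control vector in the same way, and the Non-injected SOD1 mutant group (n = 4) consisted of littermates without injection. Each library was made from a pool of 500 motoneurons of 1 mouse, cut by laser from stained lumbar cord sections. No healthy mice were among the samples, so every value below is a value in mutant mice, and the microRNA was expressed in neighbouring astrocytes, not by design in the cells that were captured.

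Glutamate excites motoneurons through ionotropic receptors assembled from subunits. AMPA receptors carry the fast current, and NMDA receptors, which contain the obligatory GluN1 subunit with GluN2 or GluN3 subunits, open more slowly, need glycine or D-serine as co-agonist and admit calcium. An AMPA receptor that contains the edited GluA2 subunit, the product of Gria2, hardly admits calcium, and the abundance and editing of GluA2 have long been studied in motoneurons because of their sensitivity to glutamate in ALS.

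The difference between GluA2 and the other AMPA subunits rests on a single codon in the loop that lines the pore, the Q/R site. The following reference sequences of 60 bases, from GENCODE M21 transcripts on GRCm38 and written 5′ to 3′ on the coding strand, show that codon in capitals:
Gria1: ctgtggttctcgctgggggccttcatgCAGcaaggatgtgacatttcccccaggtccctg
Gria2: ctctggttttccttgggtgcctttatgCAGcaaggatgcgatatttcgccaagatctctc
Gria3: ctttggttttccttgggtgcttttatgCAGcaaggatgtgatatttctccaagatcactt
Gria4: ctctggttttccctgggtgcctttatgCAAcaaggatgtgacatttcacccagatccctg

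All of these genes encode glutamine at the site in the genome. In Gria2 the codon is number 607, counted from the start codon, at chr3:80706911-80706913 on the minus strand, in exon 11 and 23 bases before the end of that exon. The enzyme ADAR2, the product of Adarb1, edits it in the pre-mRNA so that the protein carries arginine. Over the 60 bases the Gria1, Gria3 and Gria4 stretches matched Gria2 at 47, 54 and 52 positions. The corresponding codons lie at chr11:57243094-57243096 (plus strand) in Gria1, chrX:41610265-41610267 (plus strand) in Gria3 and chr9:4464137-4464139 (minus strand) in Gria4. Counts per gene show neither how much of the Gria2 RNA was edited nor which flip or flop splice form was present, so what follows concerns the abundance of the transcripts.

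On GRCm38 the AMPA receptor genes lie at chr11:57011387-57330244 (Gria1, plus strand), chr3:80681450-80802835 (Gria2, minus strand), chrX:41400854-41678601 (Gria3, plus strand) and chr9:4417896-4796234 (Gria4, minus strand). The NMDA receptor genes examined all lie on minus strands, at chr2:25291181-25319187 (Grin1), chr16:9567898-9995560 (Grin2a), chr6:135713233-136173511 (Grin2b), chr11:115249169-115267243 (Grin2c), chr7:45831883-45878378 (Grin2d) and chr4:49661611-49845744 (Grin3a). Some of their exons overlap other annotated genes, among them the antisense gene Grin1os over 1307 exonic bases of Grin1. The strand setting of the counting is not given in the sources used here. These overlapping genes had at most 53 counts each over all 13 libraries.

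Counts assigned to genes ranged from 13.9 to 37.4 megacounts per library. The libraries numbered 5 and 6, all of them controls, had 29.7 to 37.4 megacounts, and those numbered 1 to 4 had 13.9 to 23.1. Alignments that were not unique came to 79.7 to 96.2 per 100 gene counts in the former and 110 to 148 in the latter. The part of this difference in the values below was not tested. Levels are given as CPM, counts scaled to a common library size, after TMM scaling, a correction for library composition. The column headers of 2 tables, Non-injected SOD1 mutant replicate 3 and AAV-miR ctrl replicate 3, disagreed with their labels; the labels were followed, and subunit fold changes that rest on these libraries are given with and without them. Non-injected replicate 3 was the highest of the 13 libraries for 8 of the 9 subunit genes that could be tested. AAV-miR SOD1 replicate 3 was the lowest for 6 of these 9. Endogenous mouse Sod1 ranged from 168 to 273 CPM in the AAV-miR SOD1 group, from 220 to 352 in the AAV-miR ctrl group and from 232 to 472 in the non-injected group; the microRNA targets the human transgene in another cell type, so this does not check the treatment.

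The captured cells carried the motoneuron markers, and their summed level moved with the groups. The 8 motoneuron markers (including Chat, the enzyme of acetylcholine synthesis, and the neurofilament genes Nefh and Nefm) summed to 3730 to 6168 CPM in the AAV-miR SOD1 group, 5326 to 11610 in the AAV-miR ctrl group and 5398 to 12832 in the non-injected group. The 12832 CPM belonged to non-injected replicate 3, and the next library of that group had 9740. The 5 erythroid markers, chiefly haemoglobin genes, summed to 20633 to 46068 CPM, 3470 to 27756 and 5444 to 19864 in the same order. In bulk samples, fewer cells of a type and less RNA per cell cannot be told apart. Microglial markers (7 genes) summed to 748 to 1009 CPM, 436 to 1191 and 259 to 659, so the AAV-miR SOD1 libraries lay above all non-injected libraries but within the range of the AAV-miR ctrl group. That range reached so high only through AAV-miR ctrl replicate 1 (1191 CPM). The next library of that group had 584 CPM, below every AAV-miR SOD1 library.

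The remaining lists overlapped between groups in part. Astrocyte markers (7 genes) summed to 459 to 575 CPM, 568 to 1011 and 540 to 782, and oligodendrocyte markers (6 genes) to 1193 to 2737, 1137 to 4532 and 1833 to 2815. Against AAV-miR ctrl the median log2 fold change was -0.45 over the astrocyte list, -0.70 over the oligodendrocyte list and 0.35 over the microglial list. Against the non-injected group these medians were -0.03, -0.33 and 0.68. Endothelial markers (4 genes) summed to 91.1 to 144, 77.3 to 133 and 56.9 to 139. The 3 vesicular glutamate transporter genes that mark excitatory interneurons summed to 3.74 to 27.7, 4.94 to 23.7 and 4.03 to 24.9 CPM, and 5 inhibitory interneuron markers to 8.06 to 25.9, 12.2 to 27.5 and 11.0 to 21.9. These 2 interneuron sums were thus low beside the motoneuron sum in every library, but not at 0. Of the 3 excitatory markers, 1 was at 0 in all non-injected libraries. The motoneuron sum came mostly from Nefm (mean 4232 CPM over the 13 libraries) and Nefh (1681). Gene by gene the lists met: excitatory Slc17a6 (12.1) and inhibitory Slc6a5 (10.4) averaged near the motoneuron markers Mnx1 (11.2) and Isl1 (8.62). The other motoneuron markers averaged 87.9 CPM or more, and the other interneuron markers 4.12 or less. The share of RNA from other neurons was not tested. The part of the marker differences between groups in the receptor values below was not tested either, for any of the 8 lists.

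**Figure D1:**
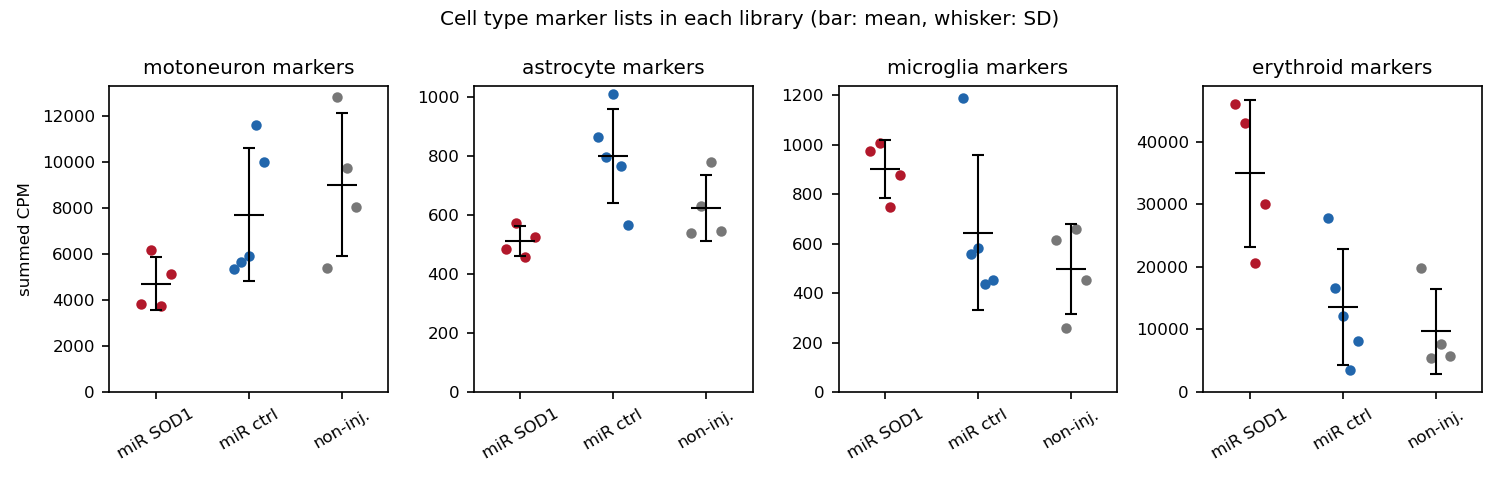
Summed CPM (vertical axis) of the motoneuron, astrocyte, microglial and erythroid marker lists in each library, by group; points are libraries, bars the mean and whiskers the SD. Motoneuron markers reached at most 6168 CPM in the AAV-miR SOD1 group against at most 12832 in the non-injected group (9740 without its replicate 3), while erythroid markers were at least 20633 CPM in every AAV-miR SOD1 library.

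The captured samples contained transcripts of all the AMPA subunits and of Grin1 at levels that differed several-fold between genes, and little Grin2c. Since glial markers were present too, the counts do not assign these transcripts to the motoneurons alone. Between genes, levels were compared as CPM per kilobase of merged exons, as mean ± SD over the 13 libraries. Gria3 (4.82 ± 1.08) and Gria4 (4.62 ± 1.37) stood highest. They were followed by Grin1 (2.86 ± 1.28), the gene of the obligatory NMDA receptor subunit, and Gria2 (2.55 ± 0.709). Grin3a (1.29 ± 0.463), whose GluN3A subunit gives NMDA receptors that are less permeable to calcium, and Gria1 (1.10 ± 0.414), the gene of the GluA1 subunit known for activity-dependent insertion at synapses, came next. The lower end of the length-scaled order held Grin2b (0.683 ± 0.211), Grin2a (0.660 ± 0.209), Grin2d (0.542 ± 0.183) and Grin2c (0.0779 ± 0.0838), which encode the GluN2 subunits that set the kinetics and magnesium block of NMDA receptors.

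The ranges of all neighbours in this order overlapped over the 13 libraries. Within libraries, Gria4 exceeded Grin1, Gria2 exceeded Grin3a, and Grin2d exceeded Grin2c in 13 of 13. Gria3 exceeded Gria4 in 8 of 13, Grin1 exceeded Gria2 in 8 of 13, and Grin2b exceeded Grin2a in 9 of 13, so those neighbours were not separated. The order depended on the length used: with the longest coding transcript instead of merged exons, an alternative chosen after the data had been seen, it ran Gria3 (9.15 CPM per kilobase), Grin1 (6.49), Gria4 (5.35), Gria2 (3.82), Grin3a (2.12), Gria1 (1.19), Grin2a (0.809), Grin2b (0.705), Grin2d (0.665) and Grin2c (0.0801).

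**Figure D2:**
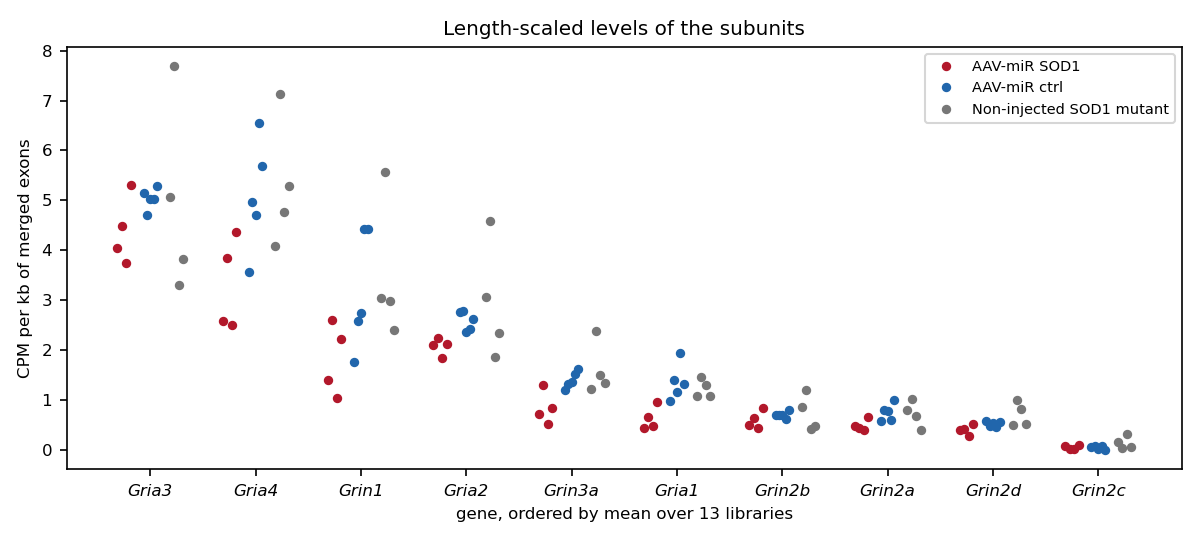
CPM per kilobase of merged exons (vertical axis) for the 10 subunit genes, ordered by their mean over the 13 libraries; each point is a library, coloured by group. Gria3 and Gria4 averaged 4.82 and 4.62, Grin1 and Gria2 2.86 and 2.55, and Grin2c 0.0779, and the ranges of neighbouring genes overlapped.

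Gria1, the least abundant AMPA subunit transcript, was the member that most clearly separated the groups. In the AAV-miR SOD1 group it measured 2.67, 3.94, 2.94 and 5.75 CPM in replicates 1, 2, 3 and 4. In the AAV-miR ctrl group it measured 5.92, 8.43, 7.05, 11.8 and 7.95 CPM in replicates 1, 3, 4, 5 and 6. The non-injected replicates 2, 3, 5 and 6 had 6.55, 8.77, 7.82 and 6.56 CPM. All 4 AAV-miR SOD1 libraries lay below all 9 control libraries, although the gap between the highest AAV-miR SOD1 library and the lowest control library was small. These levels rested on 60 to 91 counts per library in the AAV-miR SOD1 group and 94 to 447 in the controls. By edgeR's quasi-likelihood test with Benjamini-Hochberg adjustment over 17403 genes, the Gria1 log2 fold change came to -1.11 (SE 0.30, adjusted p = 0.256) against AAV-miR ctrl. It was -0.96 (SE 0.31, adjusted p = 0.143) against the non-injected group and -1.03 (SE 0.27, adjusted p = 0.0960) against the mean of both control groups, that is 2.05 times lower than the controls. None of these passed the threshold of 0.05.

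Some other fits placed Gria1 on the other side of the threshold. DESeq2 gave an adjusted p of 0.0337 against AAV-miR ctrl, where it called 0.5% of all genes lower, and 0.0408 against the non-injected group, where it called 2.72%. Against both controls the DESeq2 adjusted p was 0.00776. Limma-voom with sample quality weights gave an adjusted p of 0.0384 for Gria1 against both controls, and the edgeR test without AAV-miR ctrl replicate 1 gave 0.0299, where 4.05% of all genes were then called lower. Over all alternatives the adjusted p of Gria1 against both controls ran from 0.00776 to 0.437. It ran from 0.0337 to 0.894 against AAV-miR ctrl and from 0.0408 to 0.594 against the non-injected group, where only DESeq2 called Gria1 in either comparison. Without the 2 libraries whose headers disagreed, the Gria1 log2 fold change against both controls was -0.92 (edgeR adjusted p = 0.206).

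Gria2, whose edited product limits calcium entry, was at 28.7 CPM or more in every library, a level not scaled for its length. Its level was 32.7, 34.8, 28.7 and 33.1 CPM in the AAV-miR SOD1 replicates 1 to 4. In the AAV-miR ctrl replicates 1, 3, 4, 5 and 6 it was 43.0, 43.4, 36.8, 37.8 and 40.6 CPM. In the non-injected replicates 2, 3, 5 and 6 it was 47.6, 71.3, 29.0 and 36.5 CPM. The AAV-miR SOD1 libraries all lay below the AAV-miR ctrl libraries, by little, but overlapped the non-injected group, in which replicate 3 stood far above the others and replicate 5 fell among the treated libraries. The edgeR log2 fold change of Gria2 came to -0.32 (SE 0.22, adjusted p = 0.530) against AAV-miR ctrl. Against the non-injected group it was -0.51 (SE 0.24, adjusted p = 0.235), and -0.15 without the 2 libraries whose headers disagreed.

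Gria3 showed the smallest displacement between groups of all the subunits tested. It ranged from 37.0 to 52.3 CPM in the AAV-miR SOD1 group, from 46.4 to 52.1 in the AAV-miR ctrl group and from 32.7 to 75.8 in the non-injected group, and each pair of groups overlapped. By edgeR, Gria3 differed by -0.20 on the log2 scale (SE 0.22, adjusted p = 0.719) from AAV-miR ctrl and by -0.18 (SE 0.23, adjusted p = 0.706) from the non-injected group. The latter turned positive, to 0.18, without the 2 libraries whose headers disagreed.

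Gria4, which encodes the rapidly gating GluA4 subunit, measured 16.2, 24.2, 15.8 and 27.5 CPM in the AAV-miR SOD1 replicates 1 to 4. The AAV-miR ctrl replicates 1, 3, 4, 5 and 6 had 22.4, 31.3, 29.7, 41.3 and 35.8 CPM of Gria4. Its level in the non-injected replicates 2, 3, 5 and 6 was 25.7, 45.0, 30.1 and 33.3 CPM. AAV-miR SOD1 replicates 1 and 3 lay below every control library, while replicates 2 and 4 lay within the control range. For Gria4 edgeR gave a log2 fold change of -0.62 (SE 0.24, adjusted p = 0.293) against AAV-miR ctrl, -0.68 (SE 0.26, adjusted p = 0.166) against the non-injected group and -0.65 (SE 0.22, adjusted p = 0.124) against both. The Gria4 change against the non-injected group was -0.43 without the 2 libraries whose headers disagreed.

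Among the NMDA receptor genes, Grin1 had 13.5, 25.2, 10.1 and 21.6 CPM in the AAV-miR SOD1 replicates 1 to 4. The AAV-miR ctrl replicates 1, 3, 4, 5 and 6 had 17.0, 25.0, 26.5, 42.9 and 42.9 CPM of Grin1. The non-injected replicates 2, 3, 5 and 6 had 29.5, 54.0, 28.9 and 23.3. The groups overlapped, and Grin1 varied over 2-fold within each of them, with its lowest values in AAV-miR SOD1 replicates 3 and 1. By edgeR, Grin1 had a log2 fold change of -0.81 (SE 0.35, adjusted p = 0.318) against AAV-miR ctrl and -0.95 (SE 0.37, adjusted p = 0.175) against the non-injected group. The latter was -0.56 without the 2 libraries whose headers disagreed.

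By the edgeR adjusted p against both controls, Grin3a came closest to Gria1 among the subunits tested. It measured 8.73, 15.8, 6.30 and 10.2 CPM in the AAV-miR SOD1 replicates 1 to 4. In the AAV-miR ctrl replicates 1, 3, 4, 5 and 6 the Grin3a level was 14.7, 16.2, 16.6, 18.6 and 19.8 CPM. The non-injected replicates 2, 3, 5 and 6 had 14.9, 29.3, 18.5 and 16.5 CPM of it. Of the AAV-miR SOD1 libraries 3 lay below all controls, and replicate 2 lay inside the control range. Grin3a had an edgeR log2 fold change of -0.74 (SE 0.27, adjusted p = 0.277) against AAV-miR ctrl, -0.94 (SE 0.29, adjusted p = 0.140) against the non-injected group and -0.84 (SE 0.25, adjusted p = 0.103) against both. Without the 2 libraries whose headers disagreed, Grin3a was at -0.62 against the non-injected group and -0.67 against both. DESeq2 gave adjusted p values of 0.0454 and 0.0279 for the last 2 comparisons, and limma-voom gave 0.0415 against both controls. Over all alternatives the adjusted p of Grin3a against both controls ran from 0.0279 to 0.443.

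The GluN2 genes, the lowest of the subunit genes per kilobase though not in CPM, overlapped between groups. Grin2a ranged from 7.06 to 11.8 CPM in the AAV-miR SOD1 group, from 10.3 to 17.8 in the AAV-miR ctrl group and from 7.10 to 18.2 in the non-injected group. Grin2b ranged from 11.1 to 20.7, from 15.4 to 19.8 and from 10.4 to 29.7 CPM in that order. Grin2d, a subunit gene best known from the developing nervous system and from interneurons, ranged from 1.90 to 3.48, from 3.02 to 3.84 and from 3.37 to 6.61 CPM. For Grin2d, 3 of the AAV-miR SOD1 libraries lay below all controls, as many as for Grin3a. Against both controls the edgeR log2 fold changes were -0.58 for Grin2a (SE 0.26, adjusted p = 0.205), -0.25 for Grin2b (SE 0.27, adjusted p = 0.622) and -0.59 for Grin2d (SE 0.28, adjusted p = 0.239). For Grin2b the change against the non-injected group alone was -0.29, and 0.11 without the 2 libraries whose headers disagreed. Without them Grin2a was at -0.40 and Grin2d at -0.44 against both controls.

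Grin2c, typical of cerebellar granule cells and astrocytes, did not pass the filter on low counts and was not tested. AAV-miR SOD1 replicates 1 to 4 contained 8, 1, 1 and 8 Grin2c counts, the AAV-miR ctrl replicates 7, 9, 1, 15 and 0, and the non-injected replicates 18, 4, 63 and 10. The count of 0, in AAV-miR ctrl replicate 6, allows up to 0.101 CPM, computed from 3 counts of the unscaled library total and covering counting error only. The 63 counts of non-injected replicate 5, the deepest library, came to 1.57 CPM. The next highest level was 0.830 CPM, in non-injected replicate 2.

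**Figure D3:**
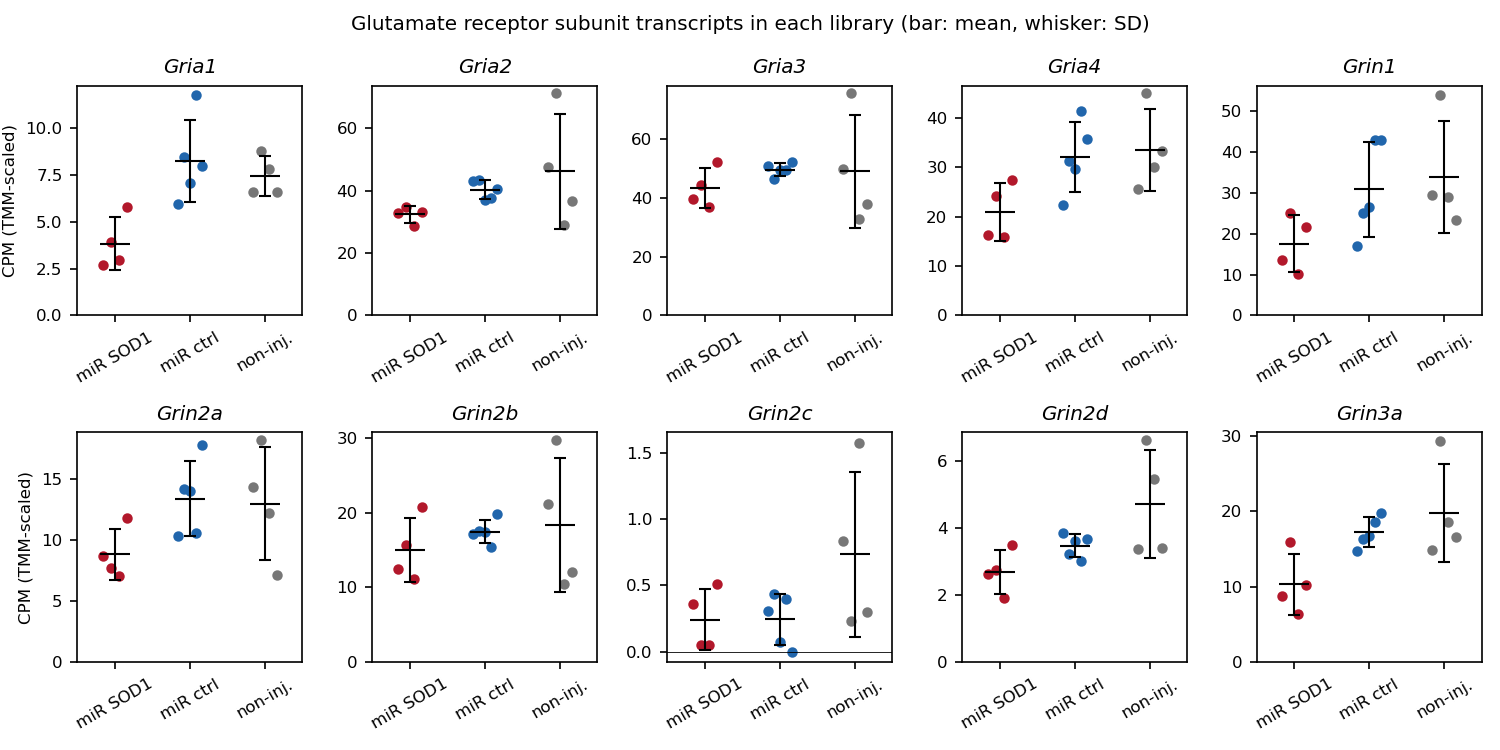
CPM (vertical axis, its scale set for each gene) of the 10 subunit genes in each library, by group (miR SOD1, miR ctrl and non-inj. stand for AAV-miR SOD1, AAV-miR ctrl and Non-injected SOD1 mutant); points are libraries, bars the mean and whiskers the SD. For Gria1 the AAV-miR SOD1 libraries (2.67 to 5.75 CPM) lay below all control libraries (5.92 to 11.8 CPM), whereas Gria3 overlapped in all groups.

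As a group, the tested subunit genes lay lower in the AAV-miR SOD1 libraries, but none passed the adjusted threshold by edgeR. Against AAV-miR ctrl, 0 of 9 had an adjusted p under 0.05 (0.0% of all genes tested did), and 4 of 9 were lower at an unadjusted p under 0.05, where 8.54% of all genes were. All 9 fold changes were negative, with a median log2 of -0.60, beside a median of -0.04 over all genes tested, 53.7% of which were negative. Without any overlap of libraries, Gria1 and Gria2 were lower, that is 2 of 9, where 2.46% of all genes were. The count of 4 fell to 2 without AAV-miR SOD1 replicate 1 or without AAV-miR ctrl replicate 6, and to 1 without AAV-miR SOD1 replicate 3. It was also 1 with the libraries numbered 1 to 4 alone.

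Against the non-injected group, 0 of 9 subunit genes passed the adjusted threshold by edgeR (0.0% of all genes) and 6 of 9 were lower at an unadjusted p under 0.05 (11.5% of all genes). The median log2 fold change of the 9 was -0.68, beside -0.09 over all genes. Only Gria1 showed no overlap of libraries, where 5.81% of all genes were lower without overlap. All 9 were negative with the labels as given, but Gria3 and Grin2b turned positive without non-injected replicate 3, to 0.11 and 0.04. The count of 6 fell to 2 without non-injected replicate 3, to 3 without AAV-miR SOD1 replicate 1 and to 2 without AAV-miR SOD1 replicate 3. It also fell to 2 when the 2 libraries with disagreeing headers were left out or exchanged.

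Between the control groups the subunit genes were closer with all libraries in the fit. In AAV-miR ctrl against the non-injected group, edgeR gave 0 of 9 at an adjusted p under 0.05 (0.0% of all genes) and 0 of 9 lower at an unadjusted p under 0.05 (2.24% of all genes). The log2 fold changes ran from -0.44 for Grin2d to 0.15 for Gria1, with a median of -0.07 beside -0.01 over all genes. That median was -0.46 with the libraries numbered 1 to 4 alone and 0.25 with the headers exchanged or those 2 libraries left out. Over all alternatives the weakest AAV-miR SOD1 medians were -0.40 against AAV-miR ctrl and -0.43 against the non-injected group. The -0.46 between controls was thus about as large as these, and the 0.25 was smaller. These medians are extremes over the alternatives and were not matched by fit.

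Against the mean of both control groups, which uses the same AAV-miR SOD1 libraries again, 0 of 9 passed the adjusted threshold by edgeR (0.0% of all genes). Of the 9, 5 (Gria1, Gria4, Grin1, Grin2a and Grin3a) were lower at an unadjusted p under 0.05, where 12.1% of all genes were. Gria1 alone showed no overlap with the controls, where 1.23% of all genes were lower without overlap. DESeq2 called 2 of 9 lower, Gria1 and Grin3a, where it called 4.64% of all genes lower, and limma-voom called the same 2, where it called 3.03%. Left out in turn, AAV-miR SOD1 replicates 1 and 3 reduced the edgeR count of 5 to 3 and to 2. The 8 motoneuron markers had a median log2 fold change of -1.05 in this comparison, with 8 of 8 lower at an unadjusted p under 0.05, and the 5 erythroid markers were all higher at that level, where 10.2% of all genes were. The median of the 9 subunit genes was -0.59, beside -0.06 over all genes, and the part of the marker differences in it was not tested.

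**Figure D4:**
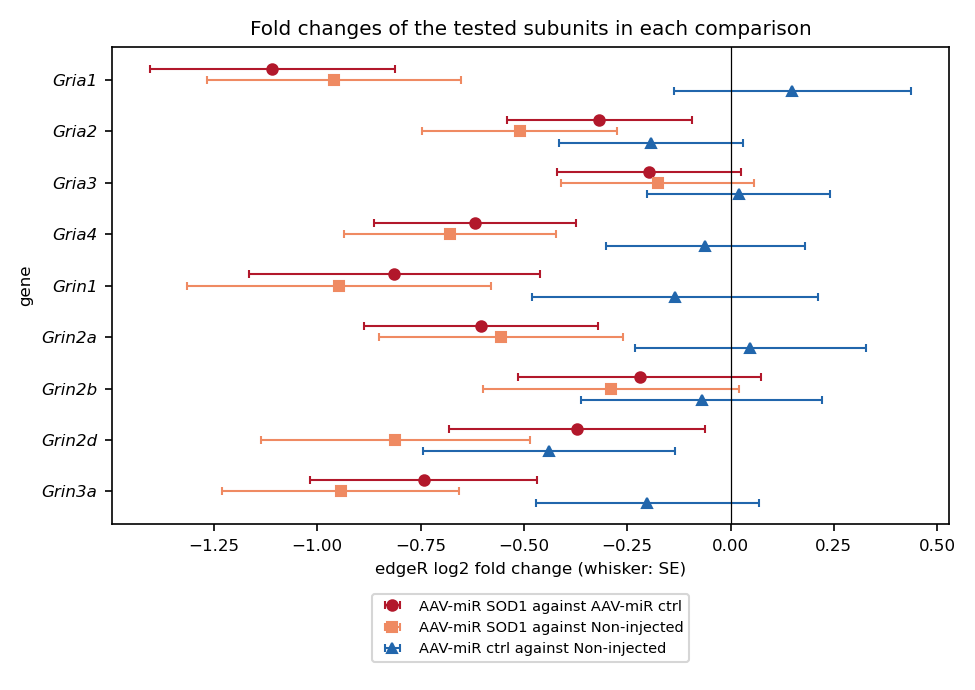
Log2 fold changes from edgeR (horizontal axis) with their SE for the 9 tested subunit genes in 3 comparisons. Points for the AAV-miR SOD1 group lie left of 0 for every gene, from -0.18 for Gria3 to -1.11 for Gria1, whereas AAV-miR ctrl against the non-injected group scatters between -0.44 and 0.15.

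The subunit composition of the AMPA receptor transcripts was then compared as shares of summed Gria1 to Gria4 counts, a measure that does not depend on library scaling. The Gria2 share of AMPA subunit counts averaged 32.5% ± 3.37 (SD, n = 4) for AAV-miR SOD1, 31.1% ± 3.30 (SD, n = 5) for AAV-miR ctrl and 33.3% ± 3.44 (SD, n = 4) for non-injected mice. By library, the Gria2 share was 35.8%, 32.5%, 34.0% and 27.9% in the AAV-miR SOD1 replicates. It was 35.2%, 33.5%, 29.9%, 26.9% and 29.8% in the AAV-miR ctrl replicates, and 36.7%, 35.5%, 29.1% and 32.0% in the non-injected replicates. The spread was alike in every group, from the high twenties to the mid thirties, and the groups overlapped throughout. The lowest share, 26.9% in AAV-miR ctrl replicate 5, had a 95% Wilson interval of 25.7% to 28.1%. The highest, 36.7% in non-injected replicate 2, had one of 34.9% to 38.5%. These intervals of the extreme libraries did not overlap. The intervals cover counting error only, since amplified reads are not independent molecules. Scaled per kilobase of merged exons, the Gria2 share averaged 20.3%, 18.6% and 20.1% in the AAV-miR SOD1, AAV-miR ctrl and non-injected groups.

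Differences in the Gria2 share between groups were smaller than its spread over libraries. The difference of AAV-miR SOD1 from AAV-miR ctrl was 1.48 percentage points (two-sided exact permutation p = 0.516), that from the non-injected group -0.792 (exact permutation p = 0.743), and that of AAV-miR ctrl from the non-injected group -2.27 (exact permutation p = 0.341). From the 9 control libraries together it was 0.470 (exact permutation p = 0.817). The 4 p-values adjusted over these 4 comparisons were all 0.817 by Benjamini-Hochberg, and the exact permutation tests could have reached 0.00794, 0.0286, 0.00794 and 0.0014.

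The other AMPA shares are given as a description without a test. The Gria1 share averaged 3.73% ± 0.811 (SD, n = 4) for AAV-miR SOD1, 6.26% ± 1.32 (SD, n = 5) for AAV-miR ctrl and 5.75% ± 1.51 (SD, n = 4) for non-injected mice. Gria3 made up 43.2% ± 1.26, 38.2% ± 2.72 and 35.5% ± 2.98 in the same groups. Its share was 41.3% to 44.1% in the AAV-miR SOD1 libraries, 35.3% to 41.5% in AAV-miR ctrl and 32.8% to 38.4% in the non-injected group, so that the AAV-miR SOD1 range met the AAV-miR ctrl range at its edge and lay above the non-injected range. Gria4 made up 20.6% ± 2.71, 24.5% ± 4.04 and 25.4% ± 5.09.

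**Figure D5:**
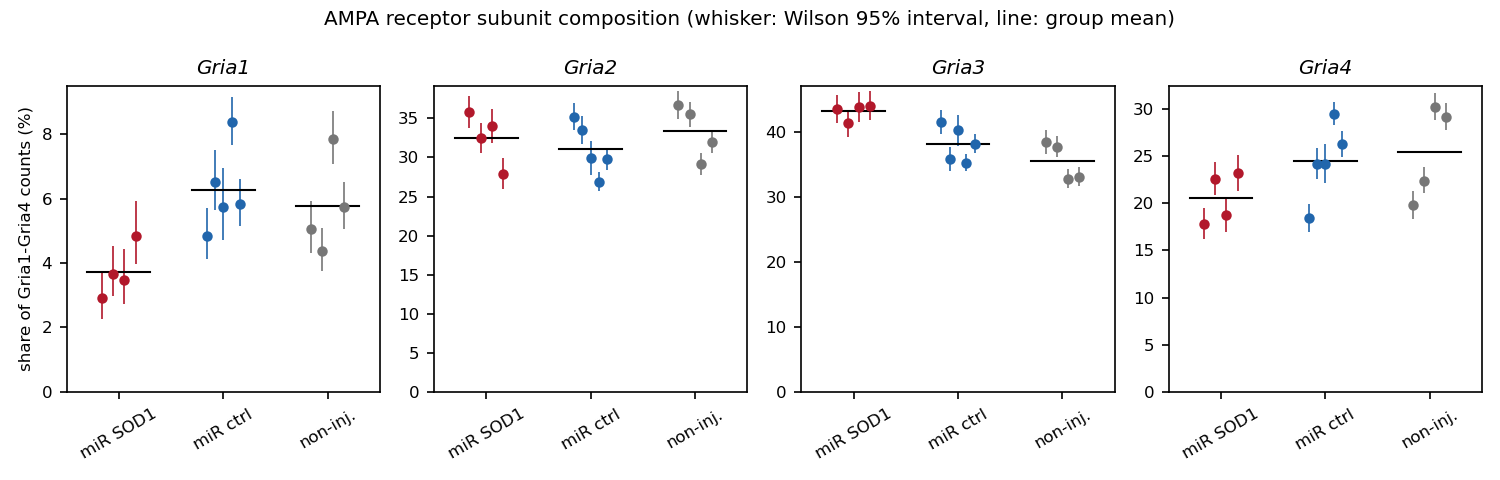
Share of each AMPA receptor subunit gene in the summed Gria1 to Gria4 counts of a library (percent, vertical axis), by group; points are libraries with Wilson 95% intervals and lines are group means. The Gria2 share averaged 32.5%, 31.1% and 33.3% in the AAV-miR SOD1, AAV-miR ctrl and non-injected groups and the groups overlapped, while the Gria3 share averaged 43.2%, 38.2% and 35.5%.

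Among the GluN2 genes, Grin2b gave the largest share of counts in each group, 55.9% ± 3.43 (SD, n = 4) for AAV-miR SOD1, 50.8% ± 2.53 (SD, n = 5) for AAV-miR ctrl and 48.9% ± 9.20 (SD, n = 4) for non-injected mice. Grin2a followed with 33.2% ± 2.96, 38.4% ± 4.09 and 35.4% ± 4.36, and Grin2d with 10.1% ± 0.706, 10.1% ± 1.29 and 13.5% ± 4.22. Shares of counts favour long transcripts, and the merged exons of Grin2b (24842 bases) are the longest of the family. Per kilobase of merged exons, the ratio of Grin2a to Grin2b was 0.83 ± 0.122, 1.05 ± 0.162 and 1.05 ± 0.381 in the AAV-miR SOD1, AAV-miR ctrl and non-injected groups. The ratio of Grin1 to the summed GluN2 genes per kilobase was 1.17 ± 0.390, 1.59 ± 0.637 and 1.504 ± 0.210. That of the NMDA to the AMPA subunit genes examined, without Grin3b, was 0.396 ± 0.0680, 0.465 ± 0.0642 and 0.511 ± 0.0770. The ranges of these ratios overlapped between groups.

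Genes of the wider glutamate synapse came from 6 lists with 70 genes, of which 66 were tested and 0 had an adjusted p under 0.05 by edgeR in any comparison. Among the other ionotropic receptor genes (kainate, delta and Grin3b), 4 of 7 tested were lower against both controls at an unadjusted p under 0.05 and 0 were higher, with a median log2 fold change of -0.92, where 12.1% of all genes were lower and 10.2% higher. The most abundant were Grid1 (-0.73, SE 0.32), a delta receptor gene, and Grik5 (-0.10, SE 0.25), a kainate receptor gene. Of the AMPA and kainate auxiliary subunit genes, 2 of 13 were lower, or 15.4%, which is near the 12.1% of all genes, and 0 higher, with a median of -0.48. The transmembrane AMPA regulator Cacng2, or stargazin, had a log2 fold change of -0.48 (SE 0.23). Its relative Cacng5 had 2.89 to 6.23 CPM in the AAV-miR SOD1 group, 7.73 to 23.1 in AAV-miR ctrl and 7.61 to 21.6 in the non-injected group, a log2 fold change of -1.56 (SE 0.39, edgeR adjusted p = 0.0960) with no overlap between treated and control libraries.

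The genes of the ADAR family, to which the editing enzyme ADAR2 belongs, did not move together. Adarb1, which edits the Gria2 site printed above, had a log2 fold change of -0.33 (SE 0.22, edgeR adjusted p = 0.411) against both controls, Adar 0.51 (SE 0.33, adjusted p = 0.388) and Adarb2 -0.93 (SE 0.46, adjusted p = 0.258), and 0 of 3 were past an unadjusted p of 0.05 in either direction. Adarb1 ranged from 14.1 to 24.3 CPM in the AAV-miR SOD1 group, from 18.5 to 30.8 in AAV-miR ctrl and from 18.2 to 29.97 in the non-injected group.

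Of 28 postsynaptic scaffold and trafficking genes, 9 were lower, or 32.1% beside 12.1% of all genes, and 0 higher at an unadjusted p under 0.05, with a median log2 fold change of -0.51. Nsf, an ATPase that also binds GluA2, had -0.97 (SE 0.28, edgeR adjusted p = 0.101), the kinase gene Camk2g -0.64 (SE 0.22, adjusted p = 0.122), and Pick1, whose product binds GluA2 during its internalisation, -0.77 (SE 0.20, adjusted p = 0.0960). Of the metabotropic receptor genes, 4 of 6 tested were lower (66.7% beside 12.1%) and 0 higher, with a median of -0.87, among them Grm7 (-0.90, SE 0.26, edgeR adjusted p = 0.101). Of 9 genes for glutamate transport, metabolism and co-agonist supply, 3 were lower (33.3% beside 12.1%) and 0 higher, with a median of -0.23. The glutamine synthetase gene Glul had -0.09 (SE 0.24) and turned to 0.07 without the 2 libraries whose headers disagreed, and the neutral amino acid transporter gene Slc1a4 had -0.69 (SE 0.24, edgeR adjusted p = 0.123). Other fits called some of these genes against both controls. DESeq2 gave adjusted p values of 0.00601 for Cacng5, 0.0118 for Pick1, 0.0175 for Nsf and 0.0189 for Grm7, and edgeR without AAV-miR ctrl replicate 1 gave 0.0447 for Camk2g. The highest adjusted p over the alternatives was 0.446, 0.437, 0.495, 0.443 and 0.449 for these 5 genes in that order. The astrocyte transporter genes Slc1a2 and Slc1a3 of this list are also in the astrocyte marker list.

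Against AAV-miR ctrl alone the 6 lists, in the order given, had 3 of 7, 2 of 13, 0 of 3, 8 of 28, 4 of 6 and 1 of 9 genes lower at an unadjusted p under 0.05, beside 8.54% of all genes. Against the non-injected group they had 4 of 7, 1 of 13, 0 of 3, 8 of 28, 3 of 6 and 4 of 9, beside 11.5% of all genes. The auxiliary subunits (2 of 13 and 1 of 13) and the transporters against AAV-miR ctrl (1 of 9) thus lay near the share of all genes. Between the control groups, 1 gene of the other ionotropic receptors was lower and 1 higher at that level, and 0 in the other lists.

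Over all 13 libraries, the genes whose log2 CPM followed that of Gria2 most closely were Sptbn1, Cltc and Gtf3c3, with Pearson's r of 0.93, 0.93 and 0.92 and Spearman's rho of 0.91, 0.91 and 0.84. Without the 2 libraries whose headers disagreed, r was 0.85, 0.81 and 0.78 over 11 libraries. Grin1 was followed most closely by Elovl4, Fam19a5 and Snap91, each with r of 0.97, and of 0.96, 0.96 and 0.97 without those libraries. These are the highest values among 17403 genes over libraries that include the group differences, and they are a description.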

How the data were processed

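Laser-captured lumbar motoneurons gave 13 libraries. The deposited values are raw counts per gene (48709 genes and 5 summary rows, which were left out of library sizes). The submitters' processing notes name cutadapt 1.8, STAR 2.5.2b, HTSeq 0.6.1 and GRCm38; annotation and strand setting are not given in the sources used here. Per the labels' protocols, cDNA was amplified with a low-input SMARTer kit. Symbols, positions and lengths came from GENCODE M21 (48349 identifiers matched, 99.986% of counts). Libraries were grouped by title and each was 1 mouse, per the labels.

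Counts were fitted over all 13 libraries with edgeR 4.0.16 (R 4.3.3), TMM scaling, filterByExpr (minimum count 10, minimum total 15; 17403 genes), the quasi-likelihood test and Benjamini-Hochberg adjustment over all genes, with a threshold of 0.05. The fit was tested on simulated data. Shares were compared by exact permutation tests (scipy 1.17.1). DESeq2 1.42.0, limma 3.58.1, other scalings and filters, a replicate block and left-out libraries were alternatives. Log2 CPM used a prior count of 2. Named genes were all 10 subunits, and per glutamate list the 2 most abundant genes, the one with the smallest p against both controls and any past the threshold; for Gria2 and Grin1 the 3 most correlated genes; and Sod1; some genes this rule names are not reported here. Members and lists were chosen with earlier results of these data known. Protein sequences were not used here.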

Additional observations from a re-analysis of the deposited data

Results flagged for a closer look

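The Grin2b share of GluN2 subunit counts was 35.1% in non-injected replicate 5, while the nearest other library of that group had 52.9%. That library also had the most Grin2c counts, 63. Over 54 sets of levels and shares examined for a library far from its group, 1 was found, where chance gives about 2.7.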

How the results depend on the processing

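Libraries with the same replicate number in their titles did not clearly deviate together. Over 8 same-numbered pairs the correlation of deviations ran from -0.19 to 0.24 (median 0.02). Over 48 other pairs it ran from -0.38 to 0.34 (median -0.01). A pairing of the mice was not tested. With the number as a replicate block, subunit genes lower at an unadjusted p under 0.05 numbered 1 against AAV-miR ctrl. They numbered 2 against the non-injected group and 3 against both controls, and the Grik5 log2 fold change was 0.071. The Gria2 share differences were then taken only over replicate numbers that the groups share. They turned to -0.308 points against AAV-miR ctrl (3 numbers) and -1.54 against both (4 numbers). Against the non-injected group the share difference moved to -2.88 (2 numbers). With libraries numbered 1 to 4 alone, 1 subunit gene was lower against AAV-miR ctrl, these share differences were -0.335, -1.63 and -3.56, Gria1 between controls was -0.093 and Grik5 0.17.

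DESeq2 called 1, 2 and 2 subunit genes in the comparisons with AAV-miR SOD1, and 180, 1025, 1521 and, between controls, 2 of all genes. Limma-voom called 2 subunit genes and 1461 genes against both controls, with Gria3 at 0.038 and Grin2b at 0.067 against the non-injected group. With no filter, 1 gene passed. Exchanging the disagreeing headers left 2 subunit genes lower against the non-injected group, with Gria3 at 0.057, and Grin2d between controls at 0.10. Without these libraries 2 were lower; Gria3 was 0.18 and Grin2b 0.11 there, and against both controls Gria3 was 0.0070 and Glul 0.071. Per kilobase of merged exons the share difference from the non-injected group was 0.194. The other scalings and the stricter filter changed no direction or side of the threshold of any result recomputed. The causes were not tested.

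Leaving out 1 library at a time, subunit genes lower at an unadjusted p under 0.05 numbered 1 to 5, 2 to 7 and 2 to 7 in the comparisons with AAV-miR SOD1, with 0 to 1 past the adjusted threshold against both controls. There 0 to 1694 genes passed: 1694 without AAV-miR ctrl replicate 1, 121 without AAV-miR SOD1 replicate 3 and 1 without its replicate 4. Gria3 ran from -0.30 to 0.11 and Grin2b from -0.49 to 0.039 against the non-injected group, Gria1 between controls from -0.015 to 0.25, Glul from -0.16 to 0.072 and Grik5 from -0.23 to 0.11. The Gria2 share difference ran from -2.19 to 0.748 against the non-injected group and from -0.612 to 2.01 against both. The fit on the groups compared alone was not run against both controls, since that comparison uses all groups. Grin2c was too shallow for a test.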
